A study of Mus musculus with 8 samples.

Results

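Claudin genes with known expression in different nephron segments were examined for acetylation of histone H3 at lysine 27 (H3K27ac), a mark of active promoters and enhancers. The 10 genes, of 21887 protein-coding genes on the autosomes and sex chromosomes, were Cldn1, Cldn2, Cldn3, Cldn4, Cldn6, Cldn7, Cldn8, Cldn10, Cldn16 and Cldn19. They were listed by name, and a gene's window was its RefSeq span (mm10) plus 10 kb on each side. The mark had been mapped by chromatin immunoprecipitation and sequencing in mpkCCD clone 11 cells, an immortalised mouse line of the cortical collecting duct, at passages 6 to 10. All cells were grown to confluence on permeable supports and kept for 24 h without serum or hormones. They then received 0.1 nM dDAVP, an analogue of vasopressin selective for the V2 receptor, or its vehicle for 24 h. Both treatments were run in 2 experiments, which gave 4 immunoprecipitated libraries, each with its own input library and its own list of called peaks (n = 2 per treatment). The labels describe no separate animals or cell lines, so n counts experiments on 1 clone.

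Claudins are membrane-spanning proteins that seal the space between neighbouring epithelial cells and set which ions pass between them. Each nephron segment uses its own combination. Cldn3, Cldn4, Cldn7 and Cldn8 are typical of the collecting duct, where Cldn4 and Cldn8 are known for a paracellular path for chloride and a barrier to sodium. Cldn2 forms a pore for sodium and water in the proximal tubule and thin descending limb. Cldn16 and Cldn19 act together in calcium and magnesium uptake of the thick ascending limb. Cldn10 has isoforms from separate gene starts, used in the proximal tubule and the thick ascending limb. Cldn1 is known from the parietal epithelium of the glomerulus and from skin, and Cldn6 from embryonic epithelia.

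The immunoprecipitated libraries kept 27923780 to 32705755 tags. The lists held between 20124 peaks over 33.5 Mb (dDAVP, experiment 2) and 39745 peaks over 104 Mb (vehicle, experiment 1). The dDAVP list covered 0.951 times the bases of the vehicle list in experiment 1 and 0.590 times in experiment 2. Over the 12558 genes with a peak in their window in all 4 lists, the median ratio of covered bases, dDAVP over vehicle, was 0.987 and 0.714. The windows of 6 principal cell markers (Aqp2, Aqp3, Avpr2, Scnn1a, Scnn1g, Hsd11b2) were covered in all 4 lists in 6 of 6 cases (57.4% of all genes) and their promoters or gene ends in 4 of 6 (42.7% of all genes), with Aqp3 called there in none. Beside the same 57.4%, windows covered in all 4 lists numbered 0 of 4 for intercalated cell markers, 2 of 4 for those of the proximal tubule, 1 of 3 for the thick ascending limb and distal convoluted tubule, 0 of 2 for fibroblasts and 1 of 2 for leukocytes and endothelium. Of these 15 genes only Lrp2 of the proximal tubule had its promoter called in all 4. A peak is a call by the authors' peak caller, so a window without one can still hold acetylation below the limit of the call.

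Promoter stretches (250 bases before to 50 after a gene start; RefSeq, GRCm38.p6) were given for 9 of the 10 genes, with 12 gene starts in all. The stretches shown next are 5′ to 3′ on the strand of the gene. They were chosen as those of Cldn4, Cldn7 and Cldn6, which peaks covered in all 4 lists, Cldn1, covered in 3, and Cldn2 and Cldn10, covered in none. Capitals mark the GC box GGGCGG, the TATA box TATAAA and the full cAMP response element TGACGTCA, each on either strand.
Cldn4, chr5:134946885-134947184, minus strand: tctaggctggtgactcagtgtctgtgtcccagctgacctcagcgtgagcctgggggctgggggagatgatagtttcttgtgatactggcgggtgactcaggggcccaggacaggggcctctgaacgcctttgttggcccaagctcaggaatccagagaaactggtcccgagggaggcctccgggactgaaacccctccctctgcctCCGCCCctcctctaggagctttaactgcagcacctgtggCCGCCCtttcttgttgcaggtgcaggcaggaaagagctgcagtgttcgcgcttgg
Cldn7, second gene start, chr11:69965171-69965470, plus strand: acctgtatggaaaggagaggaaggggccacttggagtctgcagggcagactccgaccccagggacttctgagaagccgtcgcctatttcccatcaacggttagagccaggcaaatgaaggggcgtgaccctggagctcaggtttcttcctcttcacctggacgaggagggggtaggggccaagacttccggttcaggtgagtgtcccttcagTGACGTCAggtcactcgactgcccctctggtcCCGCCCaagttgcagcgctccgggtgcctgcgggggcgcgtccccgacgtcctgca
Cldn6, chr17:23679115-23679414, plus strand: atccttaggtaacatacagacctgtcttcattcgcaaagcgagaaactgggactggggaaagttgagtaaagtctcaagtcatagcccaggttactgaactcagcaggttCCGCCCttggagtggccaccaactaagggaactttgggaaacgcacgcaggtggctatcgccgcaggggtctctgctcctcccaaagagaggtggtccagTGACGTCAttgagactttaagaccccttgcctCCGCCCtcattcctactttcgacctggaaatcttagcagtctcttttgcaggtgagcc
Cldn1, chr16:26371790-26372089, minus strand: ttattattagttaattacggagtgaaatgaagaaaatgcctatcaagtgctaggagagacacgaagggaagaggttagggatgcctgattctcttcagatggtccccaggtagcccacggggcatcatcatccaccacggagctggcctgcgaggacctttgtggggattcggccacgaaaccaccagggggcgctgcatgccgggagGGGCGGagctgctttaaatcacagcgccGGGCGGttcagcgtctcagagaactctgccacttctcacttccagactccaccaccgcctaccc
Cldn2, chrX:139800558-139800857, plus strand: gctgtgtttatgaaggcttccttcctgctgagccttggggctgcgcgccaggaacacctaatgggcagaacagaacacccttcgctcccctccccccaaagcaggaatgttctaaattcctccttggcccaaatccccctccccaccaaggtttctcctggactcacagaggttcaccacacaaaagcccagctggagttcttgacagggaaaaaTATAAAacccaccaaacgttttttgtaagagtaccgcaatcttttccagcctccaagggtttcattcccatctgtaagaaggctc
Cldn10, second gene start, chr14:118854700-118854999, plus strand: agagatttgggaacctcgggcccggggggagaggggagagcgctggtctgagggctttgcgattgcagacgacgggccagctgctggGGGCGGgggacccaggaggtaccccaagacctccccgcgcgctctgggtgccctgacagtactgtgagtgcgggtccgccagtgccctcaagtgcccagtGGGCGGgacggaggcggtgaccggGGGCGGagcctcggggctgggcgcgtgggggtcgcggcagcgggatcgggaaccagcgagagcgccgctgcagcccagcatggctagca

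Among the 10 listed claudins, those with peaks in every list were those of the collecting duct, together with Cldn6. A peak lay in the window in all 4 lists for 5 of the 10 genes, namely Cldn3, Cldn4, Cldn7, Cldn8 and Cldn6, against 57.4% of all protein-coding genes. The same 5 genes were called in all 4 lists over the promoter stretch, or, for Cldn8, which had no gene start in the table, within 1 kb of a gene end. That was the case for 42.7% of all protein-coding genes. Of genes with a start in the table, 4 of 9 claudins and 42.9% of all genes were called there in all 4 lists. These shares of the claudins were near those of all genes. All 4 collecting duct claudins were called in every list, and of the 5 claudins of other segments (Cldn2, Cldn10, Cldn16, Cldn19 and Cldn1) none was. Promoters of Cldn2, Cldn10, Cldn16 and Cldn19 were called in no list (4 of 10, against 46.7% of all genes). The Cldn1 promoter was called in 3 lists, all but dDAVP in experiment 2, a pattern found for 5.41% of all genes. As the genes were listed with earlier results of these data known, these counts are a description, and no test was made.

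**Figure D1:**
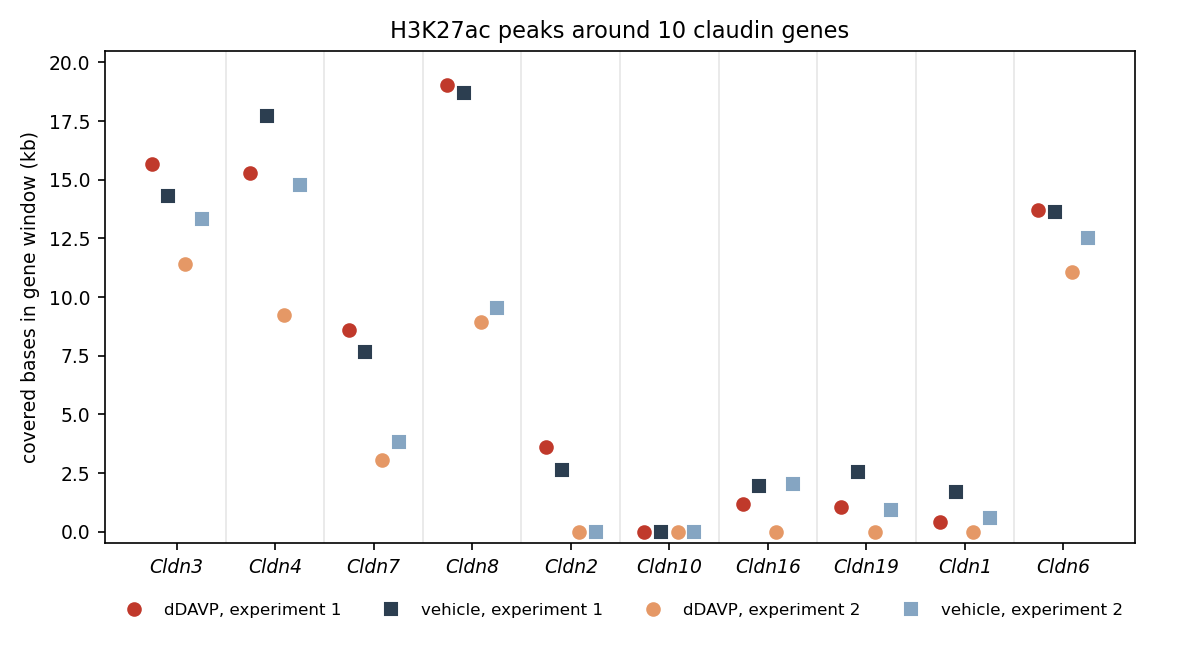
Bases covered by called H3K27ac peaks in the window of each claudin (kb, gene span plus 10 kb each side), 1 point per list. Cldn3, Cldn4, Cldn6, Cldn7 and Cldn8 have covered bases in all 4 lists, Cldn10 has 0 in each, and Cldn2, Cldn16, Cldn19 and Cldn1 have at most 3595 bp.

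Cldn3 and Cldn4, neighbouring genes of barrier-forming claudins on chromosome 5, lay in a largely covered stretch, more broken in experiment 2. For Cldn3 (134986214 to 134987476, plus strand), experiment 1 gave 15660 covered bases with dDAVP against 14326 with vehicle, and experiment 2 gave 11420 against 13336. For Cldn4 (134945123 to 134946934, minus strand), these values were 15270 against 17706 and 9230 against 14765. Both genes had their lowest value with dDAVP in experiment 2. The whole span of both genes was covered in every list. Of the 39279 bp between them, 91.2% (dDAVP) and 87.8% (vehicle) were covered in experiment 1, and 65.6% and 83.7% in experiment 2. In experiment 1 a single peak between the genes reached into both windows, 23001 bp long with dDAVP and 22379 bp with vehicle. In vehicle of experiment 2, 1 peak of 29267 bp ran from 24.5 kb before the start of Cldn4 to 4.76 kb after it, while the peaks with dDAVP that reached into the Cldn4 window were separate, with lengths of 615, 4258, 2331 and 9549 bp.

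The peak with the highest fold at Cldn3 spanned the gene start and was 13176, 13331, 9942 and 10525 bp long (dDAVP and vehicle of experiment 1, then of experiment 2). Fold is the authors' ratio of tag coverage to local background, and is read here only as a rank within its list. Those peaks had a fold of 8.94, 10.0, 7.72 and 13.0, at percentiles 96.7, 98.1, 94.5 and 99.3 of their lists. At Cldn4 the percentiles of the strongest peak were 93.1, 94.8, 96.7 and 92.9. In dDAVP of experiment 2 that peak lay 3.54 to 5.87 kb before the gene start, and a separate peak over the start was at percentile 92.6. The strongest peak of both genes thus stood at percentile 92.9 or above in each of the 4 lists.

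Cldn7, a claudin also found on the basolateral membrane, had a peak at its start (chromosome 11, 69964779 to 69967886). This peak was narrow beside those over Cldn3, Cldn4, Cldn6 and Cldn8 in each list. Experiment 1 gave 8594 covered bases with dDAVP against 7652 with vehicle, and experiment 2 gave 3046 against 3830. The peak over both gene starts began 575, 425, 358 and 621 bp before the first of them. It was 6673 and 6504 bp long in experiment 1, where it reached into the neighbouring gene Elp5, and 2783 and 3163 bp in experiment 2, where it ended within Cldn7. Its fold stood at percentiles 96.0, 95.1, 98.2 and 99.1. A smaller peak 2 to 4 kb before the start recurred in all 4 lists, with lengths of 1921, 1148, 263 and 667 bp. Of the 5 claudins called in all 4 lists, Cldn7 had the smallest share of its window covered in each list, 37.2%, 33.1%, 13.2% and 16.6%, although its peak ranked high.

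Cldn8, a partner of Cldn4 in the chloride path, showed the reverse, a wide stretch of lower rank. It lies on chromosome 16 (88560826 to 88563183), where experiment 1 gave 19061 covered bases with dDAVP against 18711 with vehicle, and experiment 2 gave 8950 against 9517. In experiment 1 a single peak of 25320 bp (dDAVP) or 24171 bp (vehicle) spanned the gene and reached to 20.2 and 19.3 kb above its lower end. In experiment 2 this stretch was broken into a peak over the gene, 3581 and 4704 bp long, a further 759 bp peak with dDAVP, and a separate peak of 11302 and 10624 bp beginning 8.03 and 7.97 kb above the lower end. The strongest peak had a fold of 5.99, 6.26, 4.90 and 5.99, at percentiles 84.4, 84.3, 70.5 and 79.6. Cldn8 had the highest covered share of the 10 windows in experiment 1 (85.3% and 83.7%), but a lower share than Cldn3, Cldn4 and Cldn6 in both lists of experiment 2 (40.0% and 42.6%).

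**Figure D2:**
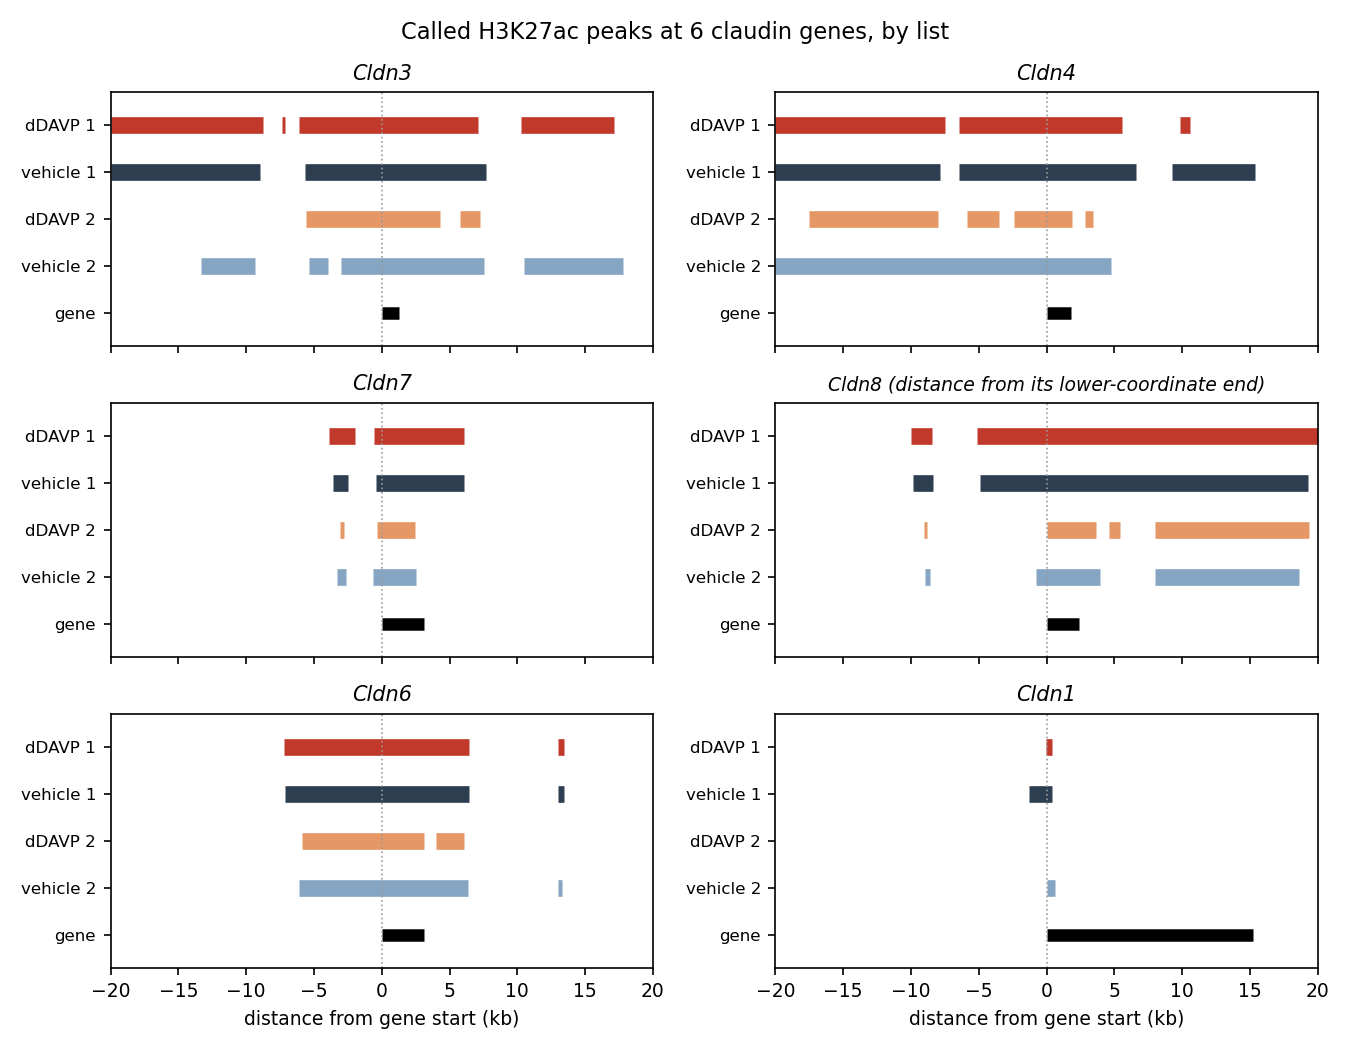
Called peaks overlapping the windows of 6 claudins, drawn by distance from the gene start (kb; for Cldn8, whose strand was not given, from its lower-coordinate end), 1 row per list with the gene in black; peaks are cut at the panel edges. Peaks cover the start of Cldn3, Cldn4, Cldn7 and Cldn6 in all 4 lists, the Cldn8 domain is split in both lists of experiment 2, and Cldn1 has no peak with dDAVP in experiment 2.

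Cldn6 carried the mark, but in a cluster of genes. It lies on chromosome 17 (23679348 to 23682446), beside Cldn9, with Tnfrsf12a, a receptor gene, Hcfc1r1 and Thoc6 in the same window. Experiment 1 gave 13710 covered bases with dDAVP against 13629 with vehicle, and experiment 2 gave 11056 against 12531. Its strongest peak was 13661, 13576, 8976 and 12440 bp long and stood at percentiles 92.7, 96.5, 88.4 and 94.3. In each list it also overlapped promoters or gene ends of Tnfrsf12a, Hcfc1r1, Thoc6 and Cldn9, so a peak in this window cannot be assigned to Cldn6 alone. Counting only bases nearer to Cldn6 than to any other protein-coding gene left 4117, 4117, 4061 and 4117 bp, with the Cldn6 span covered in full in every list.

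Order among these 5 genes depended on the experiment. By share of the window covered, Cldn8 came first in both lists of experiment 1. In experiment 2 Cldn3 came first with dDAVP (53.7%) and Cldn4 with vehicle (67.7%). Cldn3 ranged from 53.7 to 73.6%, Cldn4 from 42.3 to 81.2%, Cldn6 from 47.9 to 59.4% and Cldn8 from 40.0 to 85.3%, so their ranges overlapped. Cldn7 ranged from 13.2 to 37.2% and stood last in each list. All 5 genes had fewer covered bases in both lists of experiment 2 than in both of experiment 1, as did 92% of the genes covered in all 4 lists. The covered share of Cldn3, Cldn4 and Cldn6 exceeded that of at least 97.8% of all protein-coding genes in every list. For Cldn8 this was at least 99.0%, and for Cldn7 at least 90.3%. These ranks include genes without any peak and windows of every length, and a peak of given length fills more of a short window.

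**Figure D3:**
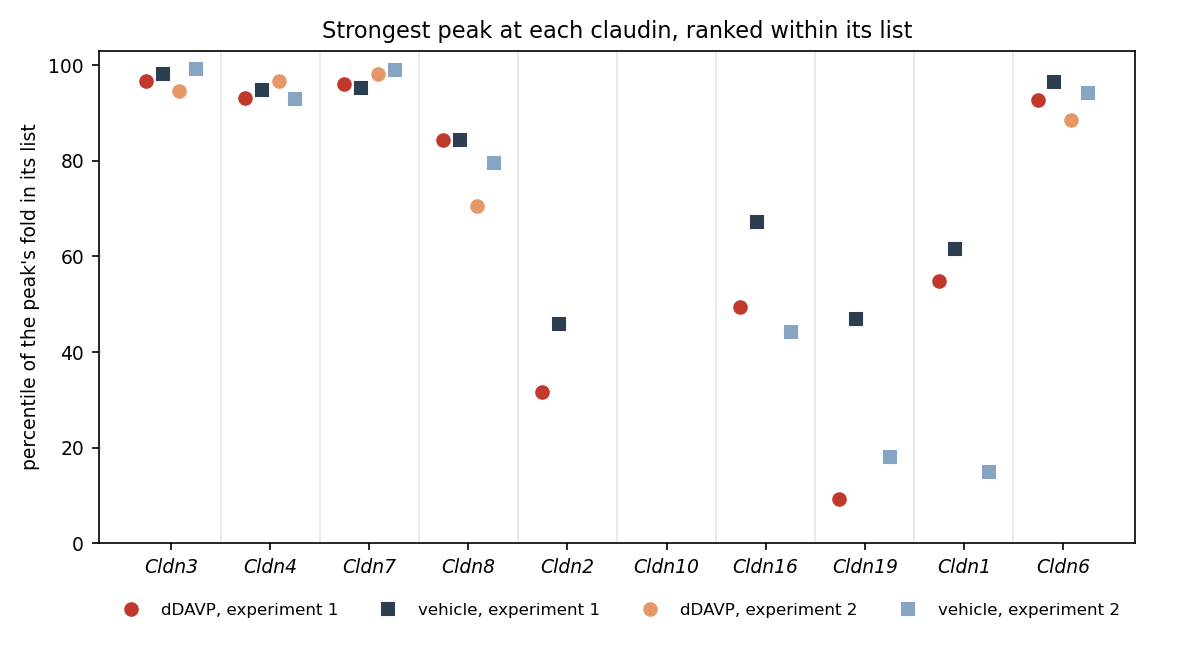
Percentile, within its own list, of the fold of the strongest peak in each claudin window, 1 point per list; no point is drawn where a window had no peak. Cldn3, Cldn4, Cldn7 and Cldn6 stand at 88.4 or above in each list, Cldn8 between 70.5 and 84.4, and the peaks of Cldn2, Cldn16, Cldn19 and Cldn1 at 67.3 or below.

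The listed claudins of other nephron segments had few and weak peaks, and mostly none at their start. Cldn2, the pore-forming claudin of the proximal tubule (X chromosome, 139800808 to 139811386), had 3595 covered bases with dDAVP against 2634 with vehicle in experiment 1, and 0 in both lists of experiment 2. Its 4 and 3 peaks in experiment 1 stood at percentiles 45.9 or below, and none lay over the gene start. In experiment 2 the nearest peak to the gene was 115457 bp away with dDAVP and 59687 bp with vehicle. Cldn10 (chromosome 14, 118787871 to 118874525) was the only member with no peak in its window in any list, as were 32.8% of all protein-coding genes. The nearest peaks were 20449, 19909, 21402 and 19825 bp from the gene.

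Cldn16 and Cldn19, partners in the tight junctions of the thick ascending limb, had no peak over their starts. Cldn16 (chromosome 16, 26463135 to 26482765) had 1199 covered bases with dDAVP against 1954 with vehicle in experiment 1, and 0 against 2036 in experiment 2. A peak of 1199, 1588 and 1826 bp lay between 9867 and 8003 bp before its start in the 3 lists with any, at percentiles 49.4, 67.3 and 44.3. Cldn19 (chromosome 4, 119255441 to 119262438) had 1052 against 2553 covered bases in experiment 1 and 0 against 914 in experiment 2, from peaks at percentiles 47.0 or below. Its peaks nearest the start ended 1361, 1092 and 1152 bp before it. Both genes had their highest values with vehicle and none with dDAVP in experiment 2.

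Cldn1 (chromosome 16, 26356645 to 26371839) differed from these in that its peak lay at the gene start. It had 429 covered bases with dDAVP against 1675 with vehicle in experiment 1, and 0 against 583 in experiment 2, so each vehicle value exceeded each dDAVP value. The peak stood at percentiles 54.8 and 61.5 in experiment 1 and 14.9 in vehicle of experiment 2, where it began 27 bp after the start and its -log10 q was 1.89. Cldn1, Cldn16 and Cldn19 were covered in all lists except dDAVP of experiment 2, the list with the fewest peaks, a pattern of 4.74% of all genes (3 of the 10 claudins). With the vehicle list of experiment 2 shortened to the same number of peaks, by -log10 q, Cldn1 and Cldn19 had 0 covered bases in it too, and Cldn16 had 1826. With that list shortened to the covered bases of the dDAVP list, all 3 genes had 0 in it.

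Whether dDAVP changed the covered bases was asked within each experiment. Among the 5 claudins covered in all 4 lists, only Cldn4 had fewer covered bases with dDAVP in both experiments (1 of 5, against 51.4% of the 12558 genes), and none had more in both (0 of 5, against 2.84%). None had both dDAVP values below both vehicle values (5.66% of those genes) or above them (0.104%). In experiment 1 the other 4 (Cldn3, Cldn7, Cldn8 and Cldn6) had more covered bases with dDAVP, and in experiment 2 all 5 had fewer. The median ratio over the 12558 genes, dDAVP over vehicle, was 0.987 in experiment 1 and 0.714 in experiment 2. With each value divided by the covered bases of its whole list, a scaling chosen after seeing the data, these 4 genes had a larger share with dDAVP in both experiments (4 of 5, against 43.6% of the 12558 genes), and Cldn4 was in neither count (0 of 5 with a smaller share in both, against 16.2%). The ratio at Cldn4 was 0.862 in experiment 1, below the 0.951 of the whole lists. In experiment 2 it was 0.625, above the 0.590 of the whole lists, so its share was larger with dDAVP there. The direction of all 5 genes in experiment 2 thus turned with the scaling. The dDAVP list of experiment 2 was also the shortest of the 4. With the vehicle list shortened to the same covered bases, experiment 2 gave 11420 (dDAVP) against 12676 (vehicle) for Cldn3, 9230 against 14765 for Cldn4, 3046 against 3163 for Cldn7, 8950 against 9091 for Cldn8 and 11056 against 12440 for Cldn6. All 5 thus still had fewer covered bases with dDAVP in that experiment. The shortening dropped the vehicle peaks of lowest -log10 q, so windows with strong peaks lost little. Cldn4 kept all of its 14765 bp with vehicle, and Cldn6 kept 12440 of 12531 bp. No share of all genes was taken at this setting, so this count cannot be set against other genes.

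At Cldn4 the ratio of covered bases, dDAVP over vehicle, was 0.862 in experiment 1 and 0.625 in experiment 2, below the medians of 0.987 and 0.714 over all such genes. Lower ratios were held by 24.2% and 36.1% of those genes. Means were 12250 ± 4271 bp with dDAVP and 16235.5 ± 2080 bp with vehicle (SD, n = 2), and the difference within experiments, dDAVP minus vehicle, was -3985.5 ± 2191 bp (SD, n = 2 pairs). The dDAVP value of experiment 1 (15270) exceeded the vehicle value of experiment 2 (14765), so the groups overlapped (exact permutation test, two-sided, p = 0.667). In experiment 1 the difference lay on the side of Mettl27, the next gene, where vehicle had a peak of 6143 bp that reached its promoter and dDAVP a peak of 742 bp. Leaving out bases nearer to Mettl27 or any other gene gave 12018 (dDAVP) against 11598 (vehicle) in experiment 1 and 8849 against 13055 in experiment 2, so that Cldn4 no longer had fewer in both.

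For the other 4 the ratios were 1.09 and 0.856 (Cldn3), 1.12 and 0.795 (Cldn7), 1.02 and 0.940 (Cldn8) and 1.01 and 0.882 (Cldn6), in experiments 1 and 2. Mean differences within experiments, dDAVP minus vehicle, were -291 ± 2298 bp for Cldn3, 79 ± 1220 bp for Cldn7, -108.5 ± 648 bp for Cldn8 and -697 ± 1100 bp for Cldn6 (SD, n = 2 pairs). Each was smaller than its spread between the experiments. Lower ratios than these were held by 54.7% (Cldn6) to 76.1% (Cldn7) of the 12558 genes in experiment 1. In experiment 2 this ran from 65.5% (Cldn7) to 90.1% (Cldn8).

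**Figure D4:**
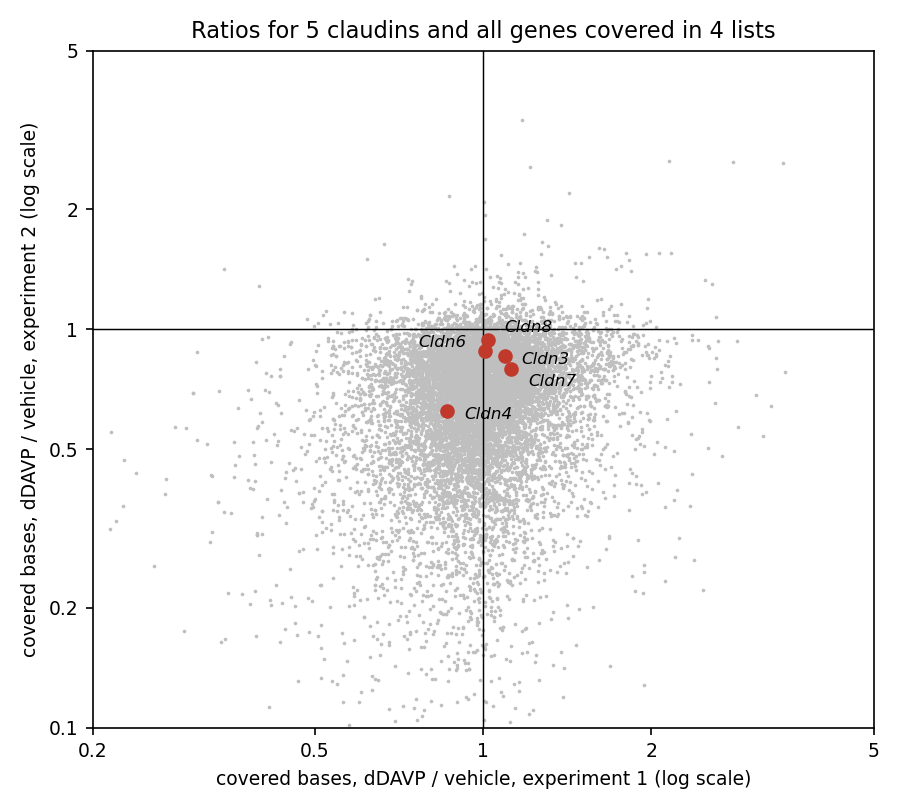
Ratio of covered bases, dDAVP over vehicle, in experiment 1 (x axis) and experiment 2 (y axis), both on log scales, for the 5 claudins covered in all 4 lists (red) and other genes covered in all 4 (grey); 51 genes lie outside the axes. Cldn4 stands left of 1 in experiment 1 at 0.862, the other 4 claudins between 1.01 and 1.12, and all 5 lie below 1 in experiment 2.

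Counting every gene covered in at least 1 list, Cldn4, Cldn16, Cldn19 and Cldn1 had fewer covered bases with dDAVP in both experiments (4 of 9, against 49.3% of 14698 genes), and 0 of 9 had more in both (2.51%). Cldn16 and Cldn1 had both dDAVP values below both vehicle values (2 of 9, against 6.95%), and no claudin had the reverse (0.122%). At equal covered bases within each experiment neither had this order, since vehicle in experiment 2 was then at 0 for both, and the mean differences were -377.5 bp for Cldn16 and -623 bp for Cldn1. With windows of 25 kb each side, 8 of 10 claudins had a peak in all 4 lists (63.8% of all genes), and 6 of these 8 had fewer covered bases with dDAVP in both experiments (53.3%). The mean difference within experiments was -1395.5 ± 906 bp for Cldn16, -1207.5 ± 415 bp for Cldn19 and -914.5 ± 469 bp for Cldn1, and for Cldn2 480.5 ± 680 bp (SD, n = 2 pairs). The exact permutation test, two-sided, gave p = 0.333 for Cldn16 and Cldn1, the smallest p that 2 lists against 2 allow. Over all 14698 genes tested the adjusted p was 1 for each of the 9 claudins (exact permutation test, Benjamini-Hochberg), and 0 genes had an unadjusted p under 0.05. Within this design no gene could pass. The p-values only place the observed difference in means among the possible relabellings of these 4 lists.

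The claudin promoters called in all 4 lists were of middling base composition. The covered stretches of Cldn3, Cldn4, Cldn7 and Cldn6 had GC contents of 60.7%, 61.0%, 52.0% and 62.3% (the first and second start of Cldn7) and 52.3%, where the quartiles of all 21263 promoter stretches were 48.3% and 64.7%. Their ratios of observed to expected CpG ran from 0.324 to 0.585, and only the second start of Cldn7 exceeded the median of 0.567. The second start of Cldn10 was richer, with 72.0% GC and a CpG ratio of 0.731, and carried 3 GC boxes, yet no list had a peak there. Of the 1801 promoter stretches with at least that GC content and CpG ratio, 66.2% were covered in all 4 lists and 21.7% in none. The uncovered stretches of Cldn2 and Cldn16 had 51.3% and 48.7% GC, and the first start of Cldn10 36.0%. The uncovered stretches at both starts of Cldn19 had 59.3% and 60.0%, above those of the covered first start of Cldn7 and of Cldn6. By CpG ratio the order was the other way, with 0.157 and 0.197 at the Cldn19 starts. Cldn2 had 0.268 and Cldn16 0.286, also below the lowest covered stretch (0.324, Cldn4). The first start of Cldn10 had 0.417, within the range of the covered stretches.

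Motif letters were searched on both strands of the 12 stretches, 2 of which overlap at Cldn19. The full cAMP response element TGACGTCA, the site known for CREB-type factors of the cAMP pathway, was present in Cldn6 and in the second start of Cldn7, 2 of 12 stretches, and in 2.23% of all promoter stretches. It began 40 and 38 bases before the gene start, as shown by the capitals in the printed stretches. Stretches holding it were covered in all 4 lists in 72% of 475 cases, those without it in 40.9% of 20788. The partial element TGACG, which the full one contains, was found in Cldn3, Cldn6 and Cldn7 (3 of 12, against 23.6%). The GC box was found in 8 of 12 (46.2%), the TATA box in Cldn2 alone (1 of 12, against 12.6%), 35 bases before its start, and the Ets letters CAGGAAG also in Cldn2 alone (12.5%). AACNNGTT, the core of grainyhead sites, was in none of the 12 (4.06%). A match describes these letters only.

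Other claudins and partners of the tight junction were read the same way. Of 14 other claudins 13 were matched by name, and the promoter or a gene end was called in all 4 lists for 3 of the 13 (42.7% of all genes), Cldn9, Cldn12 and Cldn23. It was called in none for 8 of the 13 (46.7% of all genes), namely Cldn5, the endothelial claudin, Cldn11, Cldn13, Cldn17, Cldn18, Cldn20, Cldn22 and Cldn24. Cldn9 shares its peaks with Cldn6, with 13633, 13686, 11056 and 12782 covered bases. Windows were covered in all 4 lists for 5 of the 13 (57.4% of all genes), namely Cldn9, Cldn12, Cldn23, Cldn14 and Cldn15. For Cldn14, experiment 1 gave 28919 covered bases with dDAVP against 24091 with vehicle, and experiment 2 gave 12736 against 16249. For Cldn15 these values were 7484 against 8030 and 2554 against 4282. The promoter or a gene end was called in 1 list for Cldn14 and in 3 for Cldn15. Of 20 partners, 17 were called there in all 4 lists (42.7% of all genes), among them Ocln, which encodes occludin, Marveld2 (tricellulin), Marveld3 and Tjp1, which encodes the scaffold ZO-1. Jam3 and Magi1 were called there in none (2 of 20, against 46.7%). For Ocln, experiment 1 gave 15920 covered bases with dDAVP against 15991 with vehicle, and experiment 2 gave 6162 against 10304. For Tjp1 these values were 11516 against 13373 and 5899 against 14041. Fewer covered bases with dDAVP in both experiments were found for 11 of the 19 partners covered in all 4 lists and for 3 of the 5 other claudins, and more in both for 0 and 0, beside the 51.4% and 2.84% of all such genes. The median ratios, dDAVP over vehicle, were 0.902 and 0.664 for the partners and 0.996 and 0.784 for the other claudins, in experiments 1 and 2.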

How the data were processed

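The members and gene lists were chosen with earlier results of these data known. The submitters' processing notes name BWA, SAMtools and mm10. MACS 2.1.1.20160309, per the file headers, called broad peaks in each of 4 immunoprecipitated libraries against its input, with q limits of 0.01 (strong) and 0.1 (broad), tags of 50 bp and at most 1 tag per position, without pooling replicates. The authors' pileup is a signal of tag coverage, scaled within each call, and entered no comparison. Fold is the authors' ratio of signal to local background, and the 2 columns whose names were lost were taken, from their order and values, as the authors' -log10 p-value and, after it, their -log10 q-value. The lists were attached to the input records, and their headers name the immunoprecipitated library. In the lists of experiment 2, the names of single peaks carry the number of another experiment.

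Peaks on the 19 autosomes, X and Y were kept, and 5 to 22 per list on other scaffolds left out. Bases of a window under merged peaks were counted, and 1 bp made a call. Genes were protein-coding RefSeq genes (GRCm38.p6, the mm10 assembly), of which 17492 had gene starts, and the other 4395, Cldn8 among them, were read within 1 kb of both ends. Percentiles are within a list. The exact permutation test, two-sided, compared mean covered bases over the 4 lists, adjusted by Benjamini-Hochberg over all genes with a covered base. Titles pair the libraries by experiment, and across 12558 genes the deviations of same-numbered libraries correlated at 0.949. Both lists of experiment 1 covered more bases than both of experiment 2, and windows differ in length. The correlation therefore cannot show how closely a dDAVP library matches its vehicle. Named genes were all members, list genes by call at the promoter (up to 4 examples in list order where over 8), and neighbours under a member's peaks. Other claudins covered in all 4 lists were named as well. Alternatives changed peak thresholds, list lengths, windows, overlap and replicates. Code ran in Python 3.11.15 with NumPy 2.4.6 and pandas 2.3.3, and was tested on simulated peaks.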

Additional observations from a re-analysis of the deposited data

How the results depend on the processing

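The 5 claudins called in all 4 lists numbered 5 also with a -log10 q of at least 5, lists of equal peak number or of equal covered bases, gene spans alone or plus 5 kb, and at least 10% of the window covered, and were 4 at a fold of at least 5, where Cldn8 had no peak left with dDAVP in experiment 2. Windows of 25 kb gave 8 (63.8% of all genes). Where no share of all genes is printed in this section, none was taken under that setting. Those counts show only how the claudin counts moved, and cannot be set against all genes. Leaving out 1 experiment gave 5 to 9 by window and 5 or 6 by promoter, the larger numbers without experiment 2. Fewer covered bases with dDAVP in both experiments were found for 2 claudins at a -log10 q of at least 5 (Cldn4, Cldn7) and 2 with 5 kb (Cldn4, Cldn6). They were 0 with gene spans alone and 6 of 8 with 25 kb (53.3% of all genes). Counting genes covered in any list gave 4 of 9 (49.3%), and shares of the list gave 0 of 5 (16.2%). With 1 experiment alone, such claudins numbered 5 of the 5 covered in both lists of experiment 2, and 4 of the 9 covered in both of experiment 1. Cldn16, Cldn19 and Cldn1 had 0 covered bases with dDAVP in experiment 2 and some with vehicle, and were not counted there. In experiment 2 the dDAVP list covered 0.590 times the bases of the vehicle list. More covered bases with dDAVP were found for 4 by share of the list (43.6% of all such genes), and for 0 to 5 with 1 experiment left out, 5 being experiment 1 alone.

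The mean difference changed sign for Cldn3 (39 bp at equal covered bases; -1916 to 1334 bp with 1 experiment left out), Cldn8 (104.5 bp; -567 to 350 bp), Cldn6 (-1475 to 81 bp with 1 experiment left out) and Cldn7 (-679.5 bp at a -log10 q of at least 5, -105.5 bp at a fold of at least 5, -58.5 bp in the gene span, -1117 bp with 25 kb, -784 to 942 bp with 1 experiment left out). Gene spans alone and windows of 5 or 25 kb count other bases by construction, shares divide the same bases by the list's total, thresholds and shortened lists hold fewer peaks, and leaving out an experiment leaves 1 pair; beyond this the cause was not tested. The exact permutation test within pairs, the replicate block, passed 0 genes, since 2 pairs allow p = 0.5 at the smallest, and changed no call. Depth limits what can be called, so a missing peak is no measure of absent acetylation. The library of the shortest list, dDAVP of experiment 2, kept 31676748 tags, and that of its vehicle 31283282. Whether depth bore on its missing peaks was not tested.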
